A study of Mus musculus with 5 samples.

Results

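The nuclei described here were chosen by their RNA for 5 genes, Tshz2, Vwc2l, Npsr1, Atp10b and Bmper, and carried the working label of subicular Tshz2 and Vwc2l neurons. Each gene's natural log of 1 plus UMIs (unique molecular identifiers, the counted RNA molecules) per 10000 was z-scored over the 27681 nuclei with at least 1000 detected genes, out of 28142 nuclei in all. A nucleus was a member if the mean z of the 5 genes was at least 1, exceeded both the mean for Rorb, Cux2, Pdzrn3, Kcnh5 and Efna5 and the mean for Foxp2, Hs3st4, Rai14, Sulf1 and Cobll1, and if its mean for the GABA neuron genes Gad1, Gad2 and Slc32a1 was below 0.5. The rule found 1936 members, called Tshz2/Vwc2l nuclei below. The levels of these genes, and with them any RNA contrast of members against other nuclei, follow from the choice and are given as a description with no test.

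The study profiled nuclear RNA and open chromatin together (10x Multiome) in mouse hippocampus, with 1 library for each of 5 genotypes, all labelled as the same batch. The genotypes were wild type, 5xFAD, and 5xFAD with astrocyte-specific, neuron-specific or global MAGL-KO, so 4 of the 5 libraries carry the 5xFAD background. 5xFAD mice carry human transgenes with familial Alzheimer's disease mutations under the mouse Thy1 promoter, and MAGL, encoded by Mgll, is the lipase that breaks down the endocannabinoid 2-arachidonoylglycerol. Age, the number of animals pooled and the promoter behind each cell-specific deletion were not given in the sources used here. With 1 library per genotype no genotype difference could be tested, and every such difference below has no replicate check. Values for the libraries are given throughout in the order wild type, 5xFAD, astrocyte MAGL-KO, neuron MAGL-KO and global MAGL-KO, called the library order.

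Tshz2 encodes a teashirt-family zinc finger transcription factor that marks near-projecting excitatory neurons of deep cortex and related cells of the subiculum, the main output region of the hippocampus. Vwc2l and Bmper encode secreted proteins with von Willebrand factor C domains that bind bone morphogenetic proteins (BMPs), extracellular ligands that signal through type I and type II serine/threonine kinase receptors and SMAD proteins. Npsr1 encodes the receptor for neuropeptide S, and Atp10b encodes a P4-type ATPase, a lipid flippase of late endosomes and lysosomes.

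In library order the members numbered 362 of 5163, 392 of 5124, 469 of 6042, 264 of 4009 and 449 of 7343 nuclei. Their share was 7.01% (exact 95% binomial interval 6.33 to 7.74), 7.65% (6.94 to 8.41), 7.76% (7.10 to 8.47), 6.59% (5.84 to 7.40) and 6.11% (5.58 to 6.69). These intervals, and the exact Poisson intervals below, cover counting error only. The order of these shares depended on the nuclei kept. Without the oligodendrocyte-marker nuclei described below they were 5.48%, 6.40%, 7.37%, 5.96% and 5.92%, and with at least 2000 detected genes 5.91%, 7.17%, 7.75%, 6.70% and 6.28%, so that wild type, which had the third highest share by the rule, had the lowest in both. Members carried 5277568 to 8894160 UMIs per library, with a median of 14323 to 16502 UMIs per nucleus. The member score ran from 1.001 to 4.979 with a median of 1.594. The 10 members nearest the threshold scored 1.001 to 1.004 and the 10 nuclei just outside scored 0.9954 to 0.9997; 206 nuclei lay within 0.1 above the threshold and 191 within 0.1 below it. Any pair of libraries shared 29 to 63 barcodes among all nuclei and 0 to 2 among members.

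All nuclei together gave 101877684 to 159339525 UMIs per library. Both Xist UMIs and UMIs of Y-linked genes were present in every library, so both sexes were pooled, and 72.7% of the members in the neuron MAGL-KO library had Xist UMIs only, against 40.0% to 48.6% elsewhere. Mgll in members was 68.8, 69.1, 89.8, 91.1 and 72.2 CPM (UMI counts-per-million) in library order, and in all nuclei 74.3, 77.8, 92.1, 92.4 and 80.3. It was not lower in any library labelled MAGL-KO than in the 5xFAD library, so these counts did not bear out the neuron-specific and global labels. Mgll was not read in astrocytes alone, so the counts cannot check the astrocyte-specific label. UMIs from outside a deleted exon would not show a deletion, and which part was deleted was not given in the sources used here. The MAGL-KO libraries are therefore named by their labels only.

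Among the 5 genes of the rule, Tshz2 was the most abundant in members by UMIs. Its level over all members was 1562, 1815, 1735, 1813 and 1713 CPM in library order. Vwc2l was at 832.8, 851.7, 852.2, 816.3 and 857.1 CPM, the narrowest spread of the 5 as a ratio of highest to lowest. Npsr1 ranged from 170.5 to 281.4 CPM, Bmper from 143.8 to 177.2 and Atp10b from 36.3 to 77.5. The 3 comparison groups were built by the same kind of score, of 1372 nuclei for the Rorb and Cux2 genes, 1687 for the Foxp2 and Hs3st4 genes, and 2117 for the CA1 genes Wfs1, Fibcd1, Mpped1 and Man1a. The rule for members did not use the CA1 score, which was higher than the member score in 98 members. Tshz2 lay at 638.2 to 966.0 CPM in the Rorb/Cux2 nuclei, 357.3 to 610.6 in the Foxp2/Hs3st4 nuclei and 118.2 to 203.1 in the CA1 nuclei. Npsr1 did not exceed 13.7 CPM in any library of a comparison group, and Atp10b did not exceed 5.51. Tshz2 was thus detected at intermediate levels in both other cortical-type groups, whereas Npsr1 and Atp10b were near 0 in all 3.

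**Figure D1:**
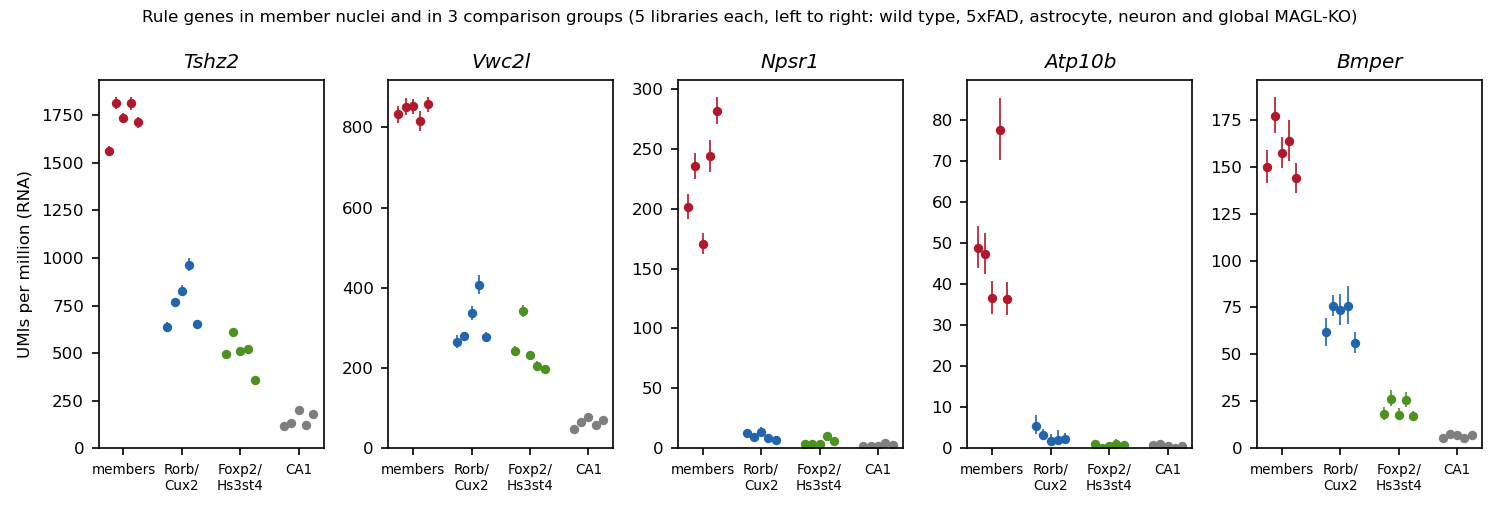
RNA of the 5 rule genes in CPM (vertical axis, linear from 0) for the 1936 members and 3 comparison groups, with 1 point per library and bars for the exact 95% Poisson interval. The members lie above every comparison library for each gene. The rule chose them for a high mean of these 5 genes, which favours this without fixing it gene by gene. Tshz2 in the Rorb/Cux2 nuclei reaches 966.0.

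Promoter sequences are shown for the 3 rule genes whose start is in the RefSeq table and covered by a tested accessible region, since these are the elements whose accessibility is compared below. Each is the 250 bases before the RefSeq start on the + strand of GRCm38.p6, the assembly behind mm10, written 5′ to 3′. Capitals mark matches to the motifs searched on both strands. They were the GC box GGGCGG, the box spelled CCAAT, the TATA match spelled TATAAA, the E-box CAGCTG and the cyclic AMP response element TGACGTCA. No matches overlapped.
Tshz2: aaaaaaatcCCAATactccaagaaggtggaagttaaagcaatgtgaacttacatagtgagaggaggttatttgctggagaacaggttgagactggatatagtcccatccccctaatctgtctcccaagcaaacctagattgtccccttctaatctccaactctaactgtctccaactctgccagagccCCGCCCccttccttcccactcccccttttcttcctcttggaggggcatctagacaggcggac
Vwc2l: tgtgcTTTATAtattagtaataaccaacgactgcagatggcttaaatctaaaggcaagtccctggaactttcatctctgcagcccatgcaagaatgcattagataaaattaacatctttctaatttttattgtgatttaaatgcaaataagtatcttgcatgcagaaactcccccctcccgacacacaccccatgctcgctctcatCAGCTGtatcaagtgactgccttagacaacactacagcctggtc
Bmper: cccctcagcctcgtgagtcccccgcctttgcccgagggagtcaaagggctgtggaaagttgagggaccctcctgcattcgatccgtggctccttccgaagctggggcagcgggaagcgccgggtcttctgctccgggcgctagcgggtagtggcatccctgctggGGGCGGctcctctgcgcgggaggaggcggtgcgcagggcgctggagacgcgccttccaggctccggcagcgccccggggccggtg
The Tshz2 sequence is chr2:169632259-169632508, is 48.8% G or C and held 1 CCAAT box and 1 GC box. The Vwc2l sequence is chr1:70725465-70725714, is 40.8% G or C and held 1 TATA match and 1 E-box. The Bmper sequence is chr9:23222826-23223075, is 71.6% G or C and held 1 GC box. The median over 32851 promoters was 52.4%, so the Bmper promoter was G and C rich and the Vwc2l promoter was poor in them. GC boxes were in 32.7% of all promoters of this length, CCAAT boxes in 33.8%, TATA matches in 12.4%, the E-box in 13% and the response element in 1.55%. A match is a match of letters and no evidence of binding.

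The members were mixed. Of the 1936, 206 had at least 0.5% of their UMIs on 8 oligodendrocyte genes, among them Mbp, Mog, Mag and Mobp, a threshold chosen after the values were seen. They numbered 79, 64, 24, 25 and 14 in library order, the most in the wild type and 5xFAD libraries. Their median UMIs per nucleus were 2181 to 2925. In 171 of them (83.0%) a single rule gene was detected. Among all 206, Npsr1 was found in 103, Atp10b in 132, Tshz2 in 1, Vwc2l in 4 and Bmper in 2. The vesicular glutamate transporter gene Slc17a7 was detected in 7 and the kinase gene Camk2a in 5. These nuclei mostly met the score through 1 gene at low depth and carried almost no RNA of Tshz2 or Vwc2l.

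The other 1730 members carried excitatory neuron RNA. Tshz2 was detected in 1714 (99.1%), Vwc2l in 1505 (87.0%) and Bmper in 1548 (89.5%), but Npsr1 in 776 (44.9%) and Atp10b in 481 (27.8%). The number of rule genes detected was 3 in 833 nuclei (48.1%), 4 in 543, 5 in 216, 2 in 135 and 1 in 3 nuclei. Slc17a7 was found in 1483 (85.7%) and Camk2a in 1659 (95.9%). The 7 excitatory markers together lay at 1276 to 1398 CPM in these 1730 members, near the Rorb/Cux2 nuclei at 1326 to 1498 and the Foxp2/Hs3st4 nuclei at 1117 to 1374. All nuclei together lay at 1255 to 1334, so this sum did not set the members apart. The GABA neuron genes Gad1, Gad2 and Slc32a1 summed to 8.90 to 14.0 CPM, against 78.2 to 100.2 in all nuclei. The rule left out nuclei high in these 3 genes, so that low sum follows from the choice.

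Markers of the subiculum gave a mixed check of the label. The 7 listed genes (Fn1, Slc17a6, Nts, Ly6g6e, Nos1, Cntn6 and Dlk1) summed to 480.4 to 627.5 CPM in the 1730 members, above the Rorb/Cux2 nuclei at 281.7 to 349.3 and the CA1 nuclei at 61.9 to 103.4. The Foxp2/Hs3st4 nuclei at 279.4 to 501.9 overlapped them. Most of the sum was Cntn6, a contactin adhesion molecule, at 355.2 to 504.7 CPM. Fn1 (fibronectin), at 38.4, 27.5, 39.5, 46.6 and 48.5 CPM in library order, exceeded every comparison library, of which the highest was 22.1. Nts (neurotensin) did likewise at 5.90 to 14.3 against at most 5.22, whereas Slc17a6, another vesicular glutamate transporter, at 36.5 to 53.5 overlapped the Rorb/Cux2 nuclei at 31.1 to 48.2. Near-projecting markers (Sla2, Lypd1, Trhr, Slc17a8, Stac, Rapgef3, Fezf2 and Etv1) summed to 167.7 to 203.2 CPM in all members. This lay between the Foxp2/Hs3st4 nuclei at 142.5 to 159.3 and the CA1 nuclei at 213.6 to 270.0. It overlapped the 173.3 to 190.5 of all nuclei together. The markers thus did not set the members apart as 1 subicular type, and the nuclei are called here by the genes that chose them.

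Marker RNA of other cell types was present in the summed members and differed between libraries. Oligodendrocyte genes summed to 537.6, 539.9, 223.0, 457.2 and 207.4 CPM in library order, and to 115.5, 96.1, 82.2, 140.1 and 91.9 without the 206 nuclei. Astrocyte genes lay at 296.3 to 378.2 CPM, against 113 to 158 in CA1 nuclei and 439 to 867 in Rorb/Cux2 nuclei. Nearly all of that sum was the glutamate transporter gene Slc1a2, at 283.9 to 356.4 CPM in members, and Aqp4, Gja1, Aldh1l1 and Gfap were each at 0.225 to 2.45. Microglia genes lay at 43.2 to 74.1, oligodendrocyte precursor genes at 18.8 to 37.7 and vascular genes at 5.26 to 18.8. None of the marker genes listed for these types was at 0 in all members, and the part of this RNA in the results below was not tested beyond the values given with and without the 206 nuclei.

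Npsr1 RNA in oligodendrocyte-marker nuclei differed between libraries. Over all nuclei that met the oligodendrocyte threshold, members or not, an Npsr1 UMI was found in 129 of 276 wild type nuclei (46.7%, exact 95% binomial interval 40.7 to 52.8) and 78 of 304 5xFAD nuclei (25.7%, 20.8 to 30.9). The 3 libraries with a MAGL-KO label, taken in library order, had it in 0 of 274, 0 of 282 and 0 of 186 nuclei, which allows shares of up to 1.34%, 1.30% and 1.964% by the exact 95% binomial interval. A count of 3, the rougher limit, corresponds to 1.09%, 1.06% and 1.61%. The UMI totals were 460, 352, 0, 0 and 0, and the median depths were 2688, 2949, 2413, 3309 and 2496 UMIs per nucleus. The astrocyte and global MAGL-KO libraries were the shallowest of the 5 in these nuclei and the neuron MAGL-KO library the deepest, and the part of depth was not tested. With Xist UMIs only, the shares were 53 of 137 and 28 of 119 nuclei in the wild type and 5xFAD libraries, and with Y-linked UMIs only 44 of 82 and 34 of 135, so the RNA was present in both. In all other nuclei, at 14763 to 18547 median UMIs, the share with an Npsr1 UMI was 5.83%, 4.88%, 5.62%, 6.55% and 5.55%. Npsr1 was at 502.2 and 307.9 CPM in the wild type and 5xFAD oligodendrocyte-marker nuclei, against 14.4 and 16.3 in the other nuclei of the same libraries. The rule used Npsr1 in these nuclei, the comparison is of single libraries, and what else differs between those libraries was not tested.

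Atp10b did not follow that pattern. It was detected in 17.8%, 17.4%, 11.3%, 19.5% and 11.8% of the oligodendrocyte-marker nuclei in library order, against 2.88% to 5.34% of the other nuclei. Tshz2 was detected in 0 to 2.69% of them and Bmper in at most 1.08%. Accessibility at Npsr1 in these nuclei was also read. An intronic region at chr9:24160178-24161142 had 159, 120, 74 and 132 cut sites in the first 4 libraries, or 77.4, 60.3, 52.7 and 58.2 cut-site CPM, cut sites scaled as the UMIs are. The peak list of the global MAGL-KO library held no peak there, so its listed 0 is no measurement. The region with the next most cut sites of the 16 at Npsr1, chr9:24119077-24120287, also intronic, was listed in all 5 libraries and had 24, 28, 25, 21 and 7 cut sites. Cut sites were thus present in the astrocyte and neuron MAGL-KO libraries, in which no Npsr1 UMI was found in these nuclei.

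**Figure D2:**
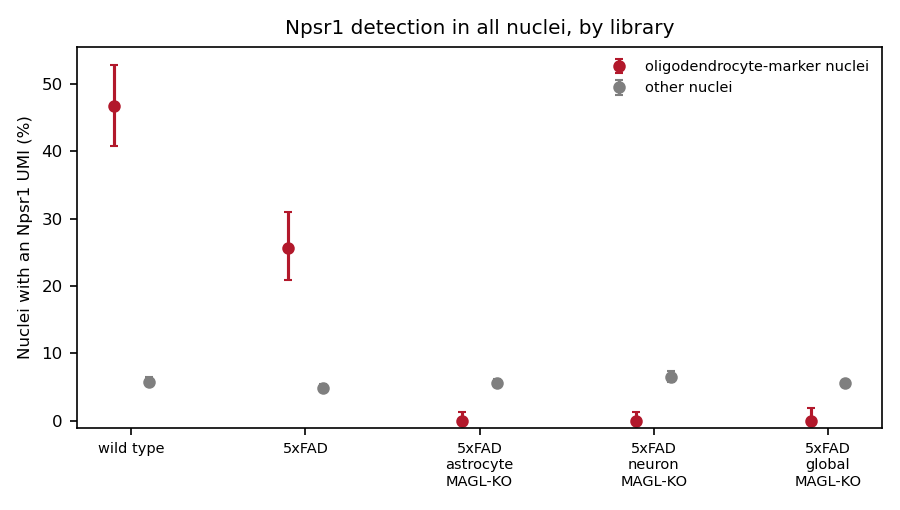
Share of nuclei with an Npsr1 UMI in percent (vertical axis) by library, for oligodendrocyte-marker nuclei and all other nuclei, with exact 95% binomial intervals. The oligodendrocyte-marker points are at 46.7% and 25.7% in the wild type and 5xFAD libraries and at 0 in the other 3, and the other nuclei lie between 4.88% and 6.55% in all 5.

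Members varied further among themselves. Clustering their RNA gave 15 clusters of 14 to 311 nuclei, each with nuclei of all 5 libraries; the genes that lead a cluster follow from the clustering and are a description. In the 2 largest clusters, of 311 and 292 nuclei, Atp10b and the glypican gene Gpc6 led, with Tshz2 at 2178 and 2093 CPM. A cluster of 175 nuclei led by the syntrophin gene Sntb1 and by Hs3st4 had the highest Vwc2l, 2020 CPM, with Cntn6 at 2795. A cluster of 63 nuclei led by Klhl1 shared high Hs3st4 (3383 CPM). Sla2, Trhr, Lypd1 and Fezf2 were also highest there of the 15 clusters, at 9.08, 87.5, 80.1 and 71.0 CPM, as was Tshz2 at 3065. The other near-projecting genes, Etv1, Stac, Rapgef3 and Slc17a8, were not highest there. Cntn6, the gene that dominated the subiculum sum, was at 21.5 to 50.1 CPM in 3 of the larger clusters, so that sum came from a subset of the members.

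Other clusters carried the remaining listed markers. Fn1 reached 317 CPM in a cluster of 64 nuclei led by Ndst4, Stac and Fn1, and Nts reached 99.96 CPM in one of 39 nuclei led by the angiopoietin gene Angpt1. Wfs1, the endoplasmic reticulum protein gene that marks CA1, was at 154.5 CPM in a cluster of 53 nuclei and 85.0 in another of 175, in which Npsr1 was at 2.93 and 15.3. Npsr1 was 910.6 CPM in the Angpt1 cluster and 492.7 in the largest one. A cluster of 199 nuclei led by St18 consisted wholly of oligodendrocyte-marker nuclei, and a cluster of 14 nuclei had the precursor gene Pdgfra at 730.7 CPM. A further 3 clusters, of 210, 66 and 64 nuclei, had both Xist and Y-linked UMIs in 58.1%, 65.2% and 59.4% of nuclei, median depths of 36834, 40172 and 28937 UMIs, and 23.8%, 19.7% and 57.8% of nuclei marked as doublets by Scrublet, a caller that simulates doublets. Over all members Scrublet marked 4.42% to 7.13% per library, but the number marked among all nuclei of a library was set by the rate given below. Both Xist and Y-linked UMIs were found in 16.6%, 11.7%, 15.1%, 9.85% and 16.3% of members in library order. Clusters were left unnamed.

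Beyond the rule, few genes set the members apart from all 3 comparison groups. A gene was counted when its log2 ratio of CPM plus 5 was at least 1 in every library against every group. Of 10279 genes with at least 200 UMIs, 3 met this over all members (0.0292%), Npsr1, Atp10b and Bmper. Without the oligodendrocyte-marker nuclei 4 of 10252 met it (0.0390%), with Vwc2l added, and Tshz2 missed it at a smallest log2 ratio of 0.93. None was 2-fold lower throughout. Every gene past the fold was a rule gene, so no gene outside the rule reached 2-fold against all groups in all libraries.

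The 10 genes outside the rule nearest to that bar are given here without the oligodendrocyte-marker nuclei. Pbx3, a TALE homeodomain transcription factor, was at 150.6, 181.7, 175.0, 142.6 and 131.5 CPM in library order and at most 87.4 in any comparison library, a smallest log2 ratio of 0.75. Alk, the receptor tyrosine kinase, was at 73.5, 69.5, 47.4, 47.2 and 61.8 CPM and at most 40.0 elsewhere, with 0.69. Tox, an HMG-box transcription factor, was at 699.0, 805.4, 826.4, 880.5 and 705.3 CPM against 370.8 to 592.9 in the Rorb/Cux2 nuclei, with 0.51. In none of these did a member library overlap a comparison library. The presynaptic priming gene Unc13c (0.56), the tRNA methyltransferase gene Trmt9b (0.55), the ephrin receptor gene Epha3 (0.51), the phosphatase gene Cdc14a (0.46), the semaphorin gene Sema6d (0.46), the glycosyltransferase gene Galnt13 (0.44) and Akain1 (0.43), which binds protein kinase A, completed the 10. With all members kept, Prr5l was also among the 10, at a smallest log2 ratio of 0.85.

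At the other end, the BMP type I receptor gene Bmpr1b was the lowest against the groups. Its level was 2.25, 6.54, 8.56, 0.578 and 4.54 CPM in library order, against 14.9 to 40.6 in the Rorb/Cux2 nuclei, 45.3 to 65.2 in the Foxp2/Hs3st4 nuclei and 19.5 to 41.2 in the CA1 nuclei, so the ratio nearest to 0 was -0.86 on the log2 scale. Chrm3, the M3 muscarinic acetylcholine receptor gene, was at 620.0, 541.0, 484.4, 388.4 and 544.3 CPM, against 689 to 1438 in the comparison libraries, with -0.59. Both genes were lower in all 5 member libraries than in any of the 15 others. The scaffold gene Ppfibp1 (-0.74), Scube1 (-0.69), Brinp2 (-0.54), Plpp3 (-0.53), Enpp2 (-0.52), the AMPA receptor auxiliary subunit gene Cnih3 (-0.51), the zinc transporter gene Slc39a12 (-0.50) and the guidance gene Slit2 (-0.48) followed.

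The pathways of the rule genes were not past the fold as groups. Of 9 extracellular BMP modulators tested, 2 were past the fold in members without oligodendrocyte-marker nuclei, Vwc2l and Bmper, both in the rule, beside 0.0390% of all 10252 genes tested. Crim1, a transmembrane BMP binder, was at 191.9 to 228.0 CPM against 104.0 to 223.8 in the groups. None of the 9 BMP receptor and co-receptor genes, the 2 ligand genes or the 6 SMAD and Id genes tested was past it, and Bmpr1a (82.1 to 102.0 CPM) and Bmpr2 (167.1 to 184.6) overlapped the groups. In the same count 1 of 19 neuropeptide receptors (Npsr1) and 1 of 12 P4 flippase genes (Atp10b) was past it, both in the rule, as was none of 26 cortical transcription factors.

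Summed over the members, some transcription factors lay between their levels in the Rorb/Cux2 and the Foxp2/Hs3st4 nuclei, and others did not. Cux2, an upper-layer homeodomain gene that the rule used, was at 121.6 to 131.6 CPM in the 1730 members. The Rorb/Cux2 nuclei had 227 to 258 and the Foxp2/Hs3st4 nuclei 12.04 to 17.7. That level is an average over unlike clusters, with Cux2 at 319.9, 238.7 and 225.0 CPM in those of 311, 292 and 161 nuclei. In the cluster of 175 nuclei led by Sntb1 and that of 63 led by Klhl1 it was at 16.2 and 4.96. Tle4, a corepressor of corticothalamic neurons that the rule did not use, was at 175.5 to 227.1 CPM against 462 to 554 in the Foxp2/Hs3st4 nuclei and 111.8 to 147.1 in the Rorb/Cux2 nuclei. Zfpm2, a cofactor of GATA proteins, was at 456 to 585 against 1232 to 1717 and 364.5 to 507.2, and overlapped the latter. Mef2c was at 456.7 to 614.7 CPM, below the Rorb/Cux2 nuclei (880.5 to 1134) and above the Foxp2/Hs3st4 nuclei (189.0 to 223.5).

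Chromatin accessibility was not used by the rule and was tested, although it comes from the same nuclei. The authors' peaks were merged across libraries, transposase cut sites were summed per library and nuclear group, and the members were compared with the mean of the 3 groups over 5 libraries by edgeR's quasi-likelihood test with the library as a block. Of 118301 regions tested, 11872 were more accessible in members (10.0%) and 6891 less (5.82%) at an adjusted p under 0.05. The share of calls that were more accessible was 63.3%, and 54.1% with relative log expression scaling and 52.1% with DESeq2, so the excess of more accessible regions depended on the scaling. More accessible than each of the 3 groups taken singly were 565 regions (0.478%), and 438 were less accessible than each (0.370%). Without the oligodendrocyte-marker nuclei, 413 and 437 of these were also called against the mean of the 3 groups. Contrasts with single groups were not run without those nuclei. All 5 member sums lay above the 15 others in 313 regions (0.265%) and below them in 147 (0.124%).

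The number of called regions differed between the comparison groups. Against the Rorb/Cux2 nuclei alone 3810 regions were more and 4176 less accessible in members, against the Foxp2/Hs3st4 nuclei 10839 and 7755, and against the CA1 nuclei 27078 and 27121. The groups held different numbers of cut sites, and the counts were not matched for depth. Within 500 bases of an annotated start, 2003 of 14186 regions were more accessible (14.1%) and 175 less (1.23%). In introns 4154 of 44615 were more and 2667 less accessible, in exons 1108 of 10902 and 534, and between genes 4607 of 48598 and 3515. Counts by kind of region were not repeated under the other scalings.

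Regions at the rule genes were called more accessible more often than regions in general. Of 104 regions tested at the 5 genes, 34 were more accessible in members (32.7%, against 10.0% of all regions) and 4 less; without oligodendrocyte-marker nuclei the counts were 35 and 4. Of the 104, 7 were more accessible than each group singly. By gene the more accessible regions were 12 of 25 at Tshz2 (48%), 11 of 32 at Bmper (34.4%), 3 of 11 at Vwc2l (27.3%), 3 of 11 at Atp10b (27.3%) and 5 of 25 at Npsr1 (20%). The genes were chosen for their RNA in these nuclei, so the share describes these 5 loci and was not tested as a set.

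**Figure D3:**
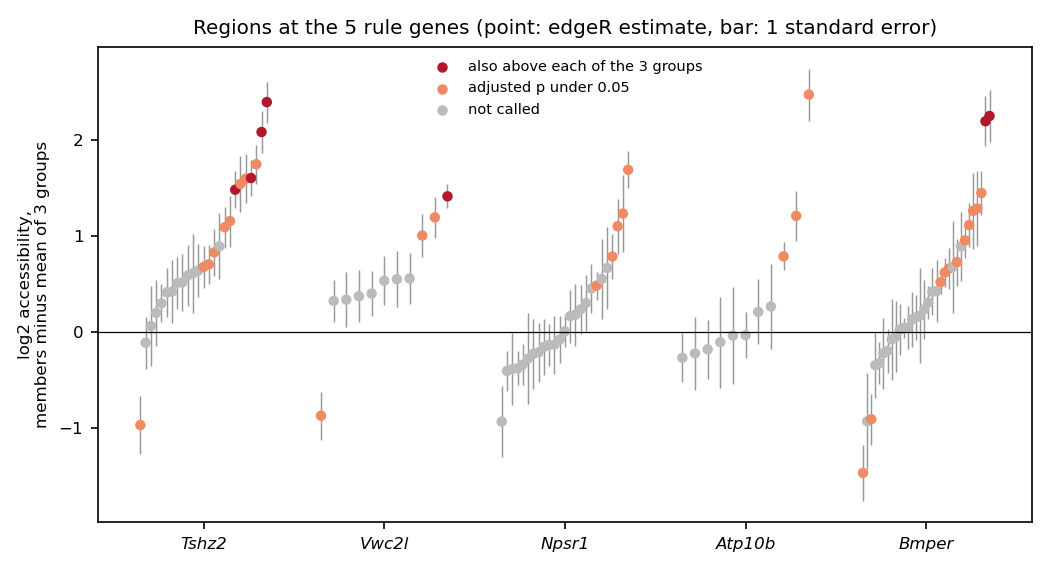
Log2 difference in accessibility between members and the mean of the 3 groups (vertical axis) for the 104 regions at the 5 rule genes, sorted within each gene, with bars for 1 standard error from edgeR and colour for the call. At Tshz2, 12 of 25 points are called more accessible, and the highest is at 2.40.

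At Tshz2 the introns differed more than the promoter. The promoter region chr2:169632264-169633203, which covers most of the sequence printed above, was at 5.95, 9.10, 8.11, 9.21 and 11.4 cut-site CPM in library order, a log2 difference of 0.68 (SE 0.22, edgeR adjusted p = 0.0241). It overlapped the Rorb/Cux2 nuclei at 4.87 to 12.3, against which the difference was 0.16 (edgeR adjusted p = 0.82). An intronic region at chr2:169757737-169758665, 124525 bases from the nearest start of the gene, was at 17.0, 16.5, 13.6, 16.8 and 14.2 cut-site CPM. The comparison sums there were 2.19 to 6.61 in the Rorb/Cux2 nuclei, 2.40 to 5.75 in the Foxp2/Hs3st4 nuclei and 0.230 to 2.66 in the CA1 nuclei. The members overlapped none of the 3 groups, and the difference was 2.40 (SE 0.213, edgeR adjusted p = 1.79e-14). This region was picked for having the highest difference of the 25 at Tshz2. Other intronic regions at chr2:169695927-169696921, chr2:169846945-169847897 and chr2:169836923-169837877 differed by 2.09, 1.61 and 1.49 on the log2 scale and were also above each group.

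Vwc2l showed the same contrast between its start and other elements. The promoter region chr1:70725339-70726115, which contains the printed sequence, was not called (log2 difference 0.33, edgeR adjusted p = 0.33). A region at chr1:70700093-70700959, in an intron of the neighbouring Spag16 and 25189 bases from the Vwc2l start, was at 25.7, 33.7, 33.5, 40.5 and 23.1 cut-site CPM in members and at most 18.3 in any comparison sum, a log2 difference of 1.42 (SE 0.127, edgeR adjusted p = 2.17e-14). It was likewise picked for the highest difference, of the 11 regions at Vwc2l. Intronic regions of Vwc2l at chr1:70794716-70795736 and chr1:70851563-70852500 were more accessible by 1.01 and 1.20, and another at chr1:70907128-70908058 was less accessible (-0.87).

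The Bmper promoter region chr9:23222837-23223804 was more accessible than the mean of the groups by 0.52 (SE 0.12, edgeR adjusted p = 0.00101), at 21.9, 24.8, 22.9, 19.2 and 20.99 cut-site CPM. It was not higher than in the Rorb/Cux2 nuclei, which had 21.9 to 28.5 and a log2 difference of -0.21. The Foxp2/Hs3st4 nuclei at 13.1 to 24.0 also overlapped the members there, and the CA1 nuclei lay at 7.15 to 9.22. Bmper introns at chr9:23394420-23395366 and chr9:23549090-23550222 differed by 2.20 and 2.25 and were above each group. An Atp10b intron at chr11:43166953-43168204 was at 13.4, 8.85, 11.4, 10.8 and 5.72, with the Rorb/Cux2 nuclei at 5.19 to 8.93 and the CA1 nuclei at most 0.690, a difference of 2.48 (edgeR adjusted p = 4.41e-11). That Atp10b region was also picked for the highest difference, of the 11 at the gene. At Npsr1 the most different region was intergenic, chr9:24079888-24080831, at 1.69 (edgeR adjusted p = 1.97e-10). At Tshz2, Vwc2l and Bmper, the rule genes with a tested promoter region, the largest difference lay outside the promoter.

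The 4 regions given next had the smallest p among those called against each of the 3 groups singly. They are the first intronic and the first intergenic region in each direction, and lay at genes other than those of the rule. An intronic region of Pdss2, a gene of coenzyme Q synthesis, at chr10:43362808-43363802 was at 35.9, 40.6, 31.6, 35.8 and 32.2 cut-site CPM against at most 24.5 elsewhere, a log2 difference of 1.68 (SE 0.113, edgeR adjusted p = 2.32e-19). An intergenic region at chr6:140126357-140127292, with Capza3 as the nearest start, was at 18.3 to 28.1 against at most 13.7, with 2.42. In the other direction, an intergenic region at chr1:90980370-90981290, 11169 bases from the Rab17 start, was at 2.98, 1.97, 4.87, 3.68 and 5.94 against 7.92 to 21.4 in the comparison sums, with -1.85 (edgeR adjusted p = 1.15e-10). An intron of Smurf1, which encodes a ubiquitin ligase that acts on BMP pathway SMADs, at chr5:144914220-144915128 was at 2.89 to 5.09 against 8.27 to 18.4, with -1.73. In each of these 4 regions, chosen for differing from each group, the members overlapped no comparison sum.

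**Figure D4:**
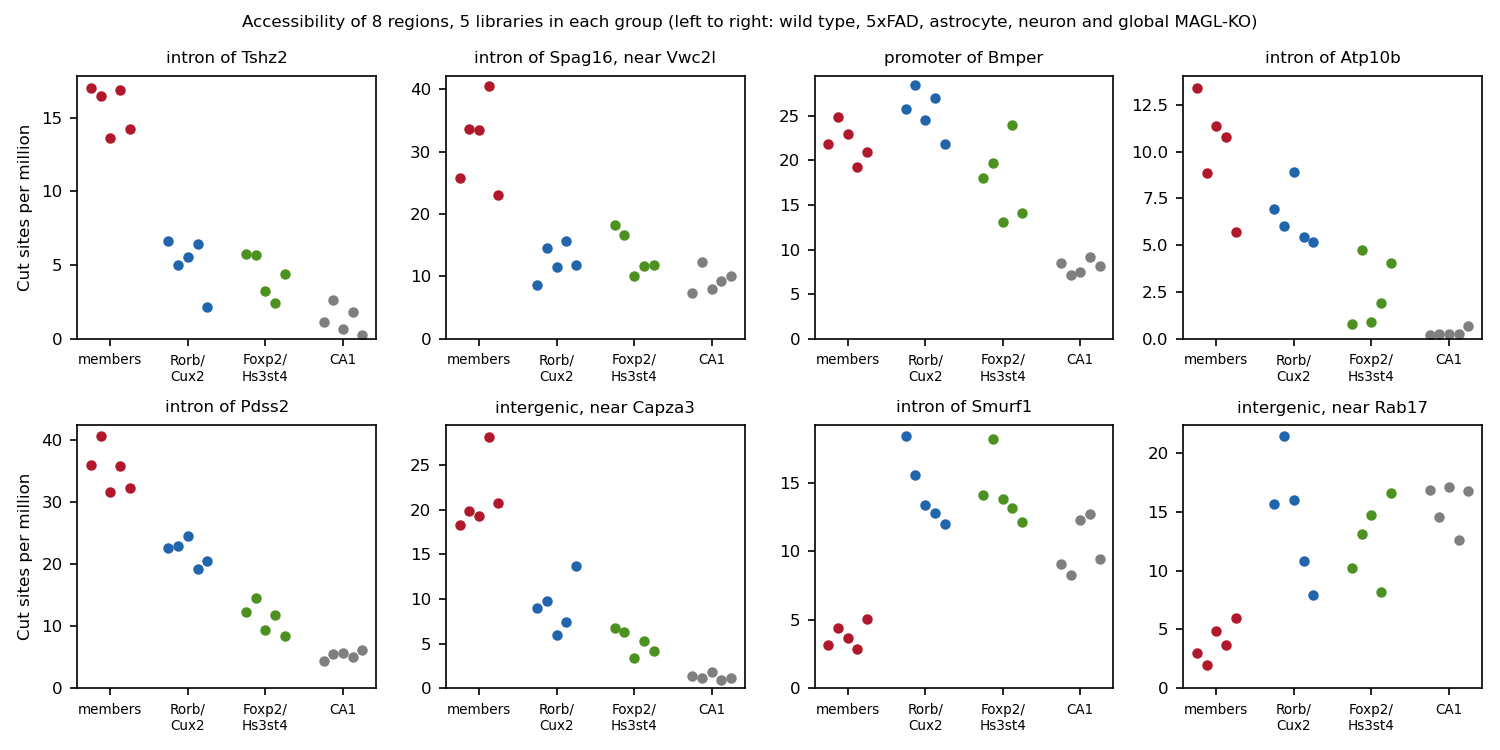
Cut-site CPM (vertical axes, each linear from 0) in 8 regions, with 1 point for each of 5 libraries in members and in the 3 comparison groups. Members lie apart from every other sum in the Tshz2, Spag16, Pdss2, Capza3, Smurf1 and Rab17 panels. The regions of the Pdss2, Capza3, Smurf1 and Rab17 panels were chosen for differing from each group. Those of the Tshz2, Spag16 and Atp10b panels were chosen for the highest log2 difference among the regions at Tshz2, Vwc2l and Atp10b. Members overlap the Rorb/Cux2 and the Foxp2/Hs3st4 nuclei at the Bmper promoter, and the Rorb/Cux2 nuclei in the Atp10b intron.

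Promoters of the genes named for their RNA were read in the same fit. The Tox promoter region (chr4:6990765-6991646) was more accessible by 0.66 (SE 0.16, edgeR adjusted p = 0.00134). The Chrm3 promoter region (chr13:10360449-10361316) was at 6.80, 8.11, 7.91, 4.47 and 10.4 cut-site CPM against 10.2 to 21.9 in the comparison sums, with a log2 difference of -0.78 (SE 0.17, edgeR adjusted p = 0.00048), and was below each group singly. Higher Tox RNA and lower Chrm3 RNA in members were thus accompanied by accessibility differences of the same sign. The Fn1 promoter was more accessible (0.67, edgeR adjusted p = 0.0385), but edgeR's adjusted p was 0.0932 without oligodendrocyte-marker nuclei, and the Pbx3 promoter went from 0.0322 to 0.645. The Bmpr1b promoter was not called (-0.60, edgeR adjusted p = 0.0541), nor were those of Alk, Epha3, Unc13c, Ppfibp1, Scube1, Brinp2, Cntn6, Nos1, Slc17a7 or Foxp2.

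Of all 13961 genes with a tested promoter, 2096 had one called more accessible and 171 one called less accessible. By region the counts were 2003 of 14186 (14.1%) and 175 (1.23%). These calls are against the mean of the 3 groups with all members kept. They were not counted under the other scalings, on which the excess over all regions depended. The median log2 difference of the 2003 was 0.325, against 0.882 for the more accessible regions in introns. Only 30 promoter regions (0.211%) were more accessible than each group singly. Of these, 13 were also called against the mean of the 3 groups without oligodendrocyte-marker nuclei. Less accessible than each group were 13 (0.0916%). Among listed genes, oligodendrocyte genes had 5 of 6 called more accessible and cortical transcription factors 5 of 25 (Cux2, Pou3f1, Tshz1, Tshz2 and Tshz3). Lmo3, Tbr1 and Zeb2 were less accessible (3 of 25). The 3 teashirt-family promoters, with Tshz2 a rule gene, were thus among those called against the mean of the 3 groups. They were not tested as a family, and the Tshz2 promoter was not called against the Rorb/Cux2 nuclei alone. Tshz1 RNA was at 6.82 to 14.2 CPM in the 1730 members, below the Rorb/Cux2 nuclei at 24.0 to 32.4. P4 flippases had 5 of 11 more accessible (Atp10a, Atp11b, Atp8a2, Atp8b1 and Atp9a), and BMP receptors 3 of 9 (Acvr1, Acvr1c and Acvr2b). Of 9 BMP effectors none was more and 2 were less accessible, Id2 and Smad6. Of 29 neuropeptide receptors 1 was more (Sstr1) and 1 less (Mc4r).

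Between genotypes, Thy1 was the gene with the highest ratio in the 5xFAD library against wild type. Its level in members was 49.7 CPM (exact 95% Poisson interval 44.8 to 55.1), 163.8 (154.7 to 173.3), 178.6, 215.4 and 158.9 in library order. The 4 libraries with the 5xFAD label were all above wild type, and the log2 ratio of 5xFAD to wild type was 1.62, with 1.02 in the Rorb/Cux2, 1.64 in the Foxp2/Hs3st4 and 2.48 in the CA1 nuclei. The region over the Thy1 start, chr9:44042860-44043763, held 33.4, 332.1, 345.1, 317.1 and 360.5 cut-site CPM in members. Cut sites and UMIs from the endogenous gene and from a transgene that carries Thy1 sequence cannot be told apart here. App, whose human form is in the transgene, had a log2 ratio of 0.01.

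Few other genes differed by 2-fold between the 5xFAD and wild type libraries. Of 8771 genes with 100 UMIs or more in both libraries together, 2 were at least 2-fold higher (0.0228%) and 2 lower (0.0228%), or 0.0456% in either direction. Without oligodendrocyte-marker nuclei 1 of 8570 was higher (0.0117%) and 4 lower (0.0467%), or 0.0583% in all. Tcf7l2, an oligodendrocyte-lineage transcription factor, was the other higher gene, and its log2 ratio went from 1.20 to 0.25 without those nuclei. Over all members 5 nuclei held 83.8% of its 5xFAD UMIs, and the ratio was -0.23 with Xist UMIs only and 1.91 with Y-linked UMIs only. The neuropeptide gene Npy was at 16.2, 3.51, 7.59, 16.5 and 8.88 CPM in library order, a log2 ratio of -1.32. The ratio was -0.51 in members with Xist UMIs only and -2.88 in those with Y-linked UMIs only, and 5 nuclei held 69.6% of its wild type UMIs once oligodendrocyte-marker nuclei were left out. The extracellular matrix gene Reln (-1.27) was likewise concentrated, with 66.4% to 98.2% of its UMIs in 5 nuclei per library. The somatostatin gene Sst was at -0.9995, and the choroid plexus gene Ttr at -0.99.

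The 3 comparisons of MAGL-KO libraries share the same 5xFAD library, so a value particular to that library enters all of them. In the library labelled astrocyte MAGL-KO, 41 of 9262 genes were past 2-fold (0.443%), 8 higher (0.0864%) and 33 lower (0.356%). That split was 3 and 46 with median-of-ratios size factors, 16 and 5 at a score threshold of 1.5, 19 and 11 in nuclei with Xist UMIs only, and 54 and 51 with a pseudocount of 1 CPM. Without oligodendrocyte-marker nuclei 13 of 9142 were (0.142%), 9 higher (0.0984%) and 4 lower (0.0438%). With the neuron MAGL-KO label, 27 of 8545 genes were past it (0.316%), 23 higher (0.269%) and 4 lower (0.0468%), and without those nuclei 30 of 8382 (0.358%), 25 higher (0.298%) and 5 lower (0.0597%). Over all members that split was 11 and 8 with size factors, and 21 and 61 in nuclei with Y-linked UMIs only. With the global MAGL-KO label, 49 of 8993 were past it (0.545%), 10 higher (0.111%) and 39 lower (0.434%), and without those nuclei 14 of 8864 (0.158%), 11 higher (0.124%) and 3 lower (0.0338%). Over all members it was 28 and 17 in nuclei with Xist UMIs only, and 8 and 9 at a score threshold of 1.5. Of the 8 listed oligodendrocyte genes, 5 were past 2-fold lower in the astrocyte and 5 in the global MAGL-KO library. Prr5l was at 89.8, 73.0, 21.3, 52.7 and 13.6 CPM, and its log2 ratios of -1.57 and -2.07 became -0.45 and -0.47 without the 206 nuclei; Mog went from -1.95 to -0.10 in the global MAGL-KO library. Those nuclei were 64 of the members in the 5xFAD library and 24, 25 and 14 in the MAGL-KO libraries.

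Cfap54, a gene of motile cilia, had the lowest ratio of the named genes in each MAGL-KO library once those nuclei were left out. Over all members it was at 126.2, 120.9, 40.5, 28.8 and 41.5 CPM in library order, so the wild type and 5xFAD libraries were about equal and the other 3 were lower. The log2 ratios were -1.50, -1.92 and -1.47 without oligodendrocyte-marker nuclei. Its UMIs were spread over nuclei, with 258 of 328 positive in the 5xFAD library and 173 of 445, 87 of 239 and 178 of 435 in the MAGL-KO libraries. The Rorb/Cux2 (-1.64, -1.69 and -1.37), Foxp2/Hs3st4 (-1.29, -1.27 and -1.01) and CA1 nuclei (-1.31, -1.47 and -1.15) had ratios of the same sign. The value was therefore not shown to be particular to the members.

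Spock1, which encodes the proteoglycan testican-1, was low in 1 library. It was at 412.9, 419.5, 424.9, 107.6 and 429.4 CPM in library order, a log2 ratio of -1.91 in the library labelled neuron MAGL-KO, where 145 of 264 members had a UMI against 351 of 392 in 5xFAD. The Rorb/Cux2, Foxp2/Hs3st4 and CA1 nuclei had ratios of -2.05, -1.35 and -0.71 in the same comparison. The gene model AC149090.1 was at 261.8, 220.2, 599.6, 578.5 and 413.4 CPM, with log2 ratios of 1.43 and 1.37 in the astrocyte and neuron MAGL-KO libraries. In the Rorb/Cux2, Foxp2/Hs3st4 and CA1 nuclei of the neuron MAGL-KO library the ratios were 1.40, 1.48 and 1.43, and those in the astrocyte MAGL-KO library were no lower than 1.40. Gapdh, a glycolytic enzyme gene, was at 24.7, 26.4, 62.3, 49.3 and 30.5 CPM, with 1.097 in the astrocyte MAGL-KO library, or 0.98 with median-of-ratios size factors, and 0.82, 1.13 and 0.92 in the 3 comparison groups. The opioid precursor gene Penk was at 2.86, 2.29, 4.98, 16.3 and 7.64 CPM, with 1.55 in the neuron MAGL-KO library against 0.68, 0.27 and 1.00 in the 3 comparison groups of the same libraries. Tacr3, the neurokinin B receptor gene, was at 10.8, 7.15, 17.0, 20.5 and 24.4 CPM, with log2 ratios of 0.86, 1.07 and 1.28, and 20.7% to 37.7% of its UMIs were in 5 nuclei per library.

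Several of the largest ratios came from a few nuclei. Without oligodendrocyte-marker nuclei Erbb4, a neuregulin receptor gene prominent in interneurons, was at 52.5, 23.6, 130.5, 64.6 and 196.4 CPM, and 62.3% to 74.3% of its UMIs lay in 5 nuclei per library. Over all members it was at 141.9, 120.8, 148.5, 103.6 and 222.7 CPM, so its log2 ratios of 2.24 and 2.81 in the astrocyte and global MAGL-KO libraries hold only without those nuclei. Among all members with Xist UMIs only these Erbb4 ratios were -0.74 and 0.548, and with Y-linked UMIs only -2.23 and 0.595. The potassium channel subunit gene Kcnmb2 (61.8% to 100%) and the carboxypeptidase gene Cpa6 (57.5% to 83.6%) were concentrated likewise, and the Kcnmb2 ratio of 1.46 in the astrocyte MAGL-KO library was -0.43 in members with Xist UMIs only and -0.04 in those with Y-linked UMIs only. Foxp2, which the rule used to choose the members, had a log2 ratio of -1.07 with the neuron MAGL-KO label. Apoe, the apolipoprotein E gene of astrocytes and microglia, had a log2 ratio of -1.10 in the global MAGL-KO library without oligodendrocyte-marker nuclei, and -1.48, -0.83 and -0.37 in the 3 comparison groups. In the members 5 nuclei held 73.5% of its UMIs in the 5xFAD library and 23.1% in the global MAGL-KO library.

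**Figure D5:**
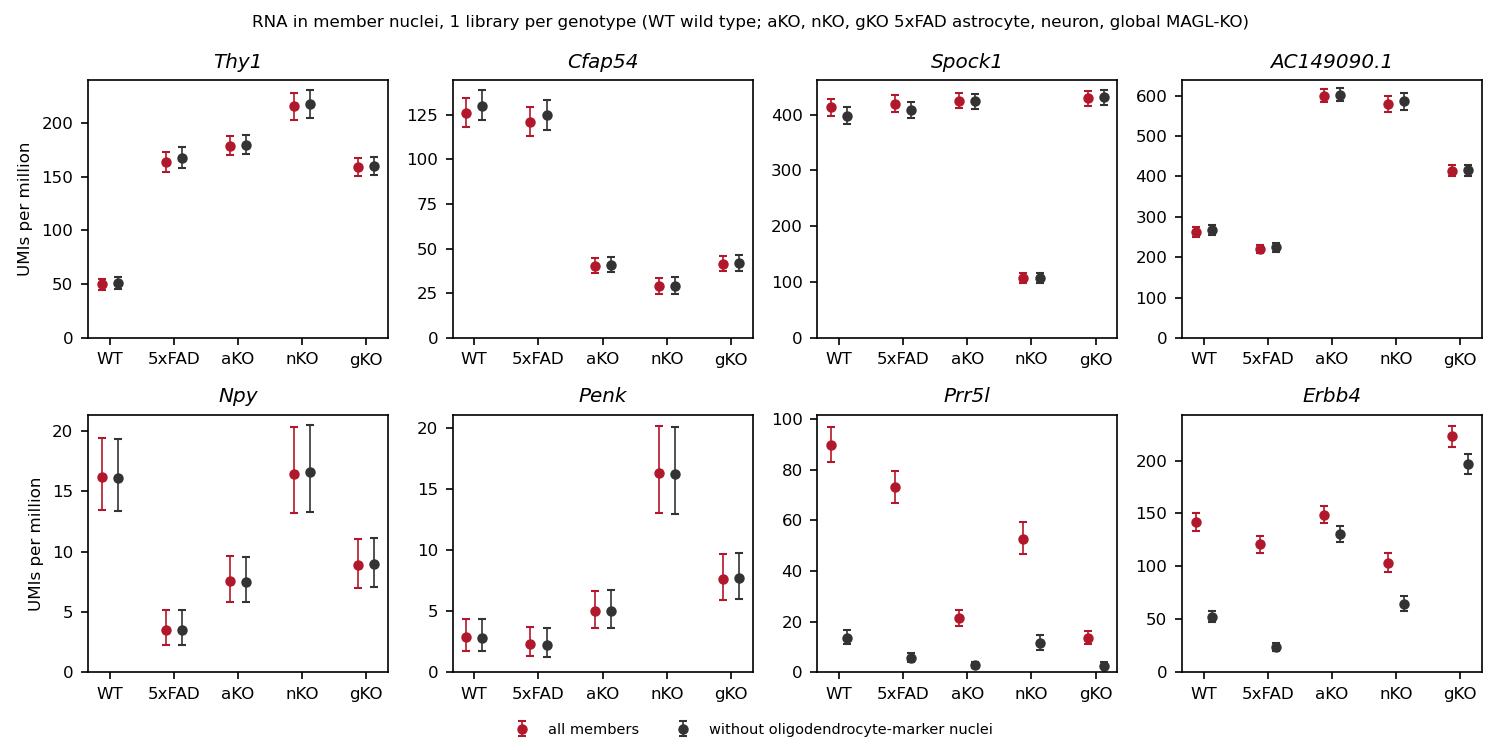
RNA of 8 genes in members by library in CPM (vertical axes, each linear from 0), with and without oligodendrocyte-marker nuclei and with exact 95% Poisson intervals. Thy1 is at 49.7 in wild type and at least 158.9 in the other 4, Cfap54 is at 28.8 to 41.5 in the 3 MAGL-KO libraries and above 120 in the other 2, and Prr5l and Erbb4 are lower without those nuclei in every library.

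Listed gene groups gave smaller differences. All 10 immediate early genes tested lay below 0 in 5xFAD against wild type, with a median log2 ratio of -0.39 beside 0.002 over all genes; the nuclear receptor gene Nr4a3 was at -0.74, Egr1 at -0.48, Arc at -0.40 and Junb at -0.38, and none was past 2-fold. Against the 5xFAD library 7, 6 and 7 of 10 lay below 0 in the 3 MAGL-KO libraries, with medians of -0.32, -0.12 and -0.33 and the postsynaptic scaffold gene Homer1 at -0.66, -0.54 and -0.42. The medians over all genes were 0.096, 0.062 and 0.002 in these 3, and with size factors the list's medians were -0.41, -0.21 and -0.33.

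Nuclear-encoded oxidative phosphorylation genes had a median of -0.01 in 5xFAD against wild type, with 7 of 18 above 0. In the astrocyte MAGL-KO library 18 of 19 lay above 0 with a median of 0.41, beside 0.096 over all genes, and in the neuron MAGL-KO library 16 of 18 with 0.38, beside 0.062. With median-of-ratios size factors these medians were 0.31 and 0.28, and those over all genes -0.02 and -0.04. In the global MAGL-KO library 9 of 18 lay above 0 and the median was 0.00. Cox4i1, of respiratory complex IV, was at 0.72, 0.69 and 0.00 in the 3, and Atp5b, of the ATP synthase, at 0.77, 0.45 and 0.22. In library order, microglia genes in members summed to 51.9, 51.8, 68.3, 74.1 and 43.2 CPM and the median share of mitochondrial UMIs was 0.00888%, 0.0114%, 0.0121%, 0.0170% and 0.00946%, so both were also highest in the astrocyte and neuron MAGL-KO libraries. Their part in these ratios was not tested, and the ratios have no replicate check.

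Endocannabinoid genes were also read. Of 8 tested, Mgll included, 8, 8 and 7 lay above 0 in the astrocyte, neuron and global MAGL-KO libraries against 5xFAD, with medians of 0.28, 0.32 and 0.17 beside 0.096, 0.062 and 0.002 over all genes. With size factors the list's medians were 0.16, 0.22 and 0.17. In 5xFAD against wild type 2 of 8 lay above 0, with a median of -0.05. Cnr1, the CB1 cannabinoid receptor gene, was at 0.72, 0.35 and 0.41 in the 3 MAGL-KO libraries. Neuropeptide receptors had 9 of 12, 11 of 12 and 9 of 13 above 0 in the 3, with medians of 0.19, 0.29 and 0.19 (0.078, 0.19 and 0.18 with size factors), and 6 of 12 with 0.004 in 5xFAD against wild type. Neuropeptides had 7 of 8 above 0 in the neuron MAGL-KO library with a median of 0.85 (0.76 with size factors), and 3 of these were past 2-fold, against 0.269% of all genes. In the library labelled astrocyte MAGL-KO 6 of 6 lay above 0 with a median of 0.42, in the global one 3 of 7 with -0.02, and in 5xFAD against wild type 1 of 6 with -0.28. Penk and Npy were among the 3 past 2-fold, and Npy was at 16.2 CPM in wild type and 16.5 in the neuron MAGL-KO library, with the 5xFAD library that both comparisons share at 3.51. Sst was at 39.5 and 39.8 CPM in those libraries and 17.3 in 5xFAD, but 5 nuclei held 43.4% of its wild type UMIs, against 19% in the neuron MAGL-KO and 22.7% in the 5xFAD library.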

How the data were processed

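Nuclear RNA and open chromatin were measured together in 5 hippocampal libraries, 1 per genotype. The deposited matrices hold UMI counts per gene and cut-site counts per peak for each nucleus; per the submitters' processing notes the authors used Cell Ranger ARC 2.0.0, Seurat and the mm10 genome, and neither a further filter nor a role for each tool was given in the sources used here. The files list 32285 genes, of which 38 share a symbol with another, and 1 listed gene was not found in them. Groups came from the genotype labels. The members, the comparison groups and the gene lists were chosen with earlier results of these data known.

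Computed here with python 3.11.15 (numpy 2.4.6, scipy 1.17.1, pandas 2.3.3, scanpy 1.11.5, leidenalg 0.10.2) were the scores, sums of UMIs per library and group, and log2 ratios of CPM with a pseudocount of 5 CPM, which understates the change of low genes. Genes needed 100 UMIs over both libraries of a genotype comparison, or 200 in the members or a comparison group. Clusters used 2000 variable genes, 30 components, 15 neighbours and a Leiden resolution of 0.6. The nuclei with the highest Scrublet scores in each library, up to a rate of 0.8% per 1000 nuclei, were marked as doublets. They were kept, except in an alternative. Intervals are exact at 95%.

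Peaks overlapping between libraries were merged into 220604 regions with a median width of 935 bases among the 129601 listed in all 5; of these 118301 passed the count filter of edgeR 4.0.16 (R 4.3.3). The fit used TMM scaling, the 20 sums of 5 libraries and 4 groups, and Benjamini-Hochberg adjustment at 0.05. Libraries are the replicates; whether their nuclei came from separate animals was not given in the sources used here. On simulated counts for 118301 regions it recovered 113 of 200 changes of log2 1 (56.5%), with 2 false calls. All other regions had the same expected CPM in all 20 sums, and the dispersion was 0.05. In the data the common dispersion was 0.0444, the median coefficient of variation between sums 26.4%, and many more regions were called. The simulation therefore does not give the error rate of the data. Regions were annotated with GENCODE vM21 and promoter sequences came from RefSeq GRCm38.p6, which held 4 of the 5 rule genes. Named genes were those of the lists, the 10 highest and 10 lowest outside the rule against the nearest comparison group, and the 4 highest and 4 lowest in each genotype comparison, leaving out mitochondrial and sex-linked marker genes and gene models named Gm or Rik. The set without oligodendrocyte-marker nuclei was added after seeing the data. Some items are not reported here.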

Additional observations from a re-analysis of the deposited data

How the results depend on the processing

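With a pseudocount of 1 CPM, genes past 2-fold numbered 15 in 5xFAD against wild type (4 as reported) and 105, 71 and 93 in the astrocyte, neuron and global MAGL-KO libraries against 5xFAD (41, 27 and 49). With a score threshold of 1.5 they were 10, 21 and 17 in the first, second and last comparison, and the shares of members were 3.91%, 4.31%, 4.34%, 3.84% and 3.5% in library order. In nuclei with Xist UMIs only, 12 genes were past 2-fold in 5xFAD against wild type; in nuclei with Y-linked UMIs only, 18 were, with 82 in the neuron and 31 in the global MAGL-KO library. Without oligodendrocyte-marker nuclei, chosen after seeing the data, the counts were 13 (astrocyte) and 14 (global), and the wild type and 5xFAD shares 5.48% and 6.40%. The wild type share was 5.91% at 2000 detected genes.

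The Thy1 log2 ratio in 5xFAD was 1.34 with Y-linked UMIs only (1.62 as reported). In the astrocyte MAGL-KO library it was 0.0044 at the higher score threshold, -0.0097 with size factors and -0.065 with Y-linked UMIs only (0.12 as reported), so its sign was not settled. It was 0.052 in the neuron MAGL-KO library with Y-linked UMIs only and -0.21 in the global one at the higher threshold. The cause was not tested.

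Regions more and less accessible numbered 6651 and 3089 at the higher score threshold, and 8093 to 9936 and 4365 to 5415 when each library was left out in turn, with 4365 less accessible without wild type. Without the replicate block, which is the library that the 4 groups of nuclei share, they were 10982 and 6443. No paired analysis was possible because each genotype has 1 library, for the comparisons between genotypes. Of the alternative values, 91 stayed within the limits set, 28 moved and 2 reversed. For a count of genes the limits cover its total alone, not its split into higher and lower genes. Depth limits all genes below the UMI minimum, and regions listed in fewer than 5 libraries were not tested.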
